A study of Homo sapiens with 4 samples.

Results

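The clustered protocadherins are the 57 rows of the expression table whose symbols belong to the PCDHA, PCDHB, PCDHGA, PCDHGB or PCDHGC series and whose locus lies on chromosome 5, out of 24934 rows in all. They comprise 15 alpha, 19 beta and 23 gamma rows, and 4 of them (PCDHB17, PCDHB18, PCDHB19P and PCDHGB8P) are pseudogenes. The rule for membership uses the symbol and position of a row and no measured value. RNA was sequenced from HEK-293 cells, an established line from human embryonic kidney, 48 h after transfection with 10 nM of siRNA by Lipofectamine RNAiMAX. The si4 and si5 siRNAs were directed against ZSCAN5A, a primate-specific zinc finger gene, and si1 against its paralog ZSCAN5B, while the control received a scrambled siRNA. There was 1 library for each of these 4 treatments, with the same cells and transfection reagent throughout, so differences between libraries have no replicate check. Values are FPKM, in which the fragments of a gene are divided by its transcript length in kilobases and by the depth of the library, which allows levels to be set side by side between genes of different length.

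Clustered protocadherins are cell adhesion proteins with cadherin repeats that bind to copies of themselves on a neighbouring cell. In neurons, each cell expresses its own small set of isoforms, and this set serves as a label by which a neuron tells its own branches from those of other cells. Each alpha and gamma gene has its own large variable exon, with its own promoter, spliced to 3 constant exons that all genes of the cluster share, whereas beta genes are mostly single exons. The choice among the promoters is known to depend on CTCF and cohesin, which hold a promoter and a distal enhancer in a loop, and on DNA methylation of the promoters that stay silent. The C-type genes at the ends of the alpha and gamma clusters are known for broader expression that is not subject to this choice in the same way.

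Most of these promoters are known to share a short element with the core letters CGCT, at or near a CTCF site. The surroundings of these letters are therefore shown for the members named below that have a promoter entry and carry them within 100 bases of the start. The search was for the letters alone, whether or not they belong to the shared element, and PCDHB1 was chosen for naming as the beta gene without that element. The sequences are 30 bases of the plus strand of GRCh37, the build of the table, with CGCT in capitals and 13 bases on either side, and transcription starts come from RefSeq. Where a promoter had more than 1 copy between 100 and 31 bases upstream, the most upstream copy is shown, a choice made after looking at the positions.
PCDHGC3 (chr5:140855450-140855479): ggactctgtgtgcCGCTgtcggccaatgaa
PCDHGC4 (chr5:140864522-140864551): tgagcccgggagcCGCTgtctgccaatcgg
PCDHGB1 (chr5:140729595-140729624): aacctctgggcgcCGCTgtcgaccaaaagg
PCDHGB5 (chr5:140777433-140777462): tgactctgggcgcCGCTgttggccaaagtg
PCDHGB6 (chr5:140787494-140787523): agcctctgggcgcCGCTgtcggccagtgca
PCDHGA11 (chr5:140800542-140800571): gggctctaggcgcCGCTgctcaccaatcag
PCDHAC2 (chr5:140345953-140345982): agcagtccgggttCGCTgtccgccacttcg
PCDHA10 (chr5:140235429-140235458): agccaccggatgtCGCTgtcgtccacaaaa
PCDHA11 (chr5:140248471-140248500): aggcgcaaggtgtCGCTctttacttggtgg
PCDHAC1 (chr5:140305808-140305837): tagaaggtgtggtCGCTcacgttcaccgtc
PCDHB2 (chr5:140474132-140474161): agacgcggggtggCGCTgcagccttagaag
PCDHB3 (chr5:140479980-140480009): gaacgcatggtggCGCTgttgactaagaag
PCDHB14 (chr5:140602838-140602867): agacacatggtggCGCTacaggataagacg
PCDHB15 (chr5:140624885-140624914): caacgcatggtggCGCTgcaggctaaggct
PCDHB1 (chr5:140430862-140430891): tggggagttgagtCGCTcaatgcaaatttt

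With the letters CGCT themselves counted, the median identity over the 30 bases shown was 70.0% for the 10 pairs of beta promoters, 66.7% for the 15 gamma pairs, 46.7% for the 6 alpha pairs and 48.3% for the 74 pairs between clusters. The gamma value depends on the copy chosen: with the copy nearest to the start, which differs for 3 gamma promoters and 1 alpha promoter, it was 40%, while that of beta remained 70.0%. Of the 57 members, 47 matched an entry in the RefSeq promoter table (GRCh38.p14), which gives 300 bases per start, 250 before it and 50 after it. On the transcribed strand, CGCT was found in 46 of these 47 promoters (97.9%), all except that of PCDHA9, and in 54.3% of all 35116 promoters of the table. On the opposite strand it was found in 25 member promoters (53.2%), beside 55.4% of all promoters, but in 38.5% of alpha, 28.6% of beta and 80% of gamma promoters. Most of the matches lay near the start: 42 of 47 member promoters (89.4%) held CGCT between 90 and 31 bases upstream, a window set after looking at the positions, compared with 18.9% of all promoters. In that window the opposite strand held it in 19.1% of member promoters and 19.2% of all promoters. By cluster this was 0% for alpha, 7.14% for beta and 40% for gamma promoters. The most upstream copy was followed by G in 35 of the 43 member promoters (81.4%) that had it within 100 bases of the start, and, by the same choice of copy, in 38.8% of 7484 promoters overall. These are matches of letters and say nothing of binding in these cells.

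**Figure D1:**
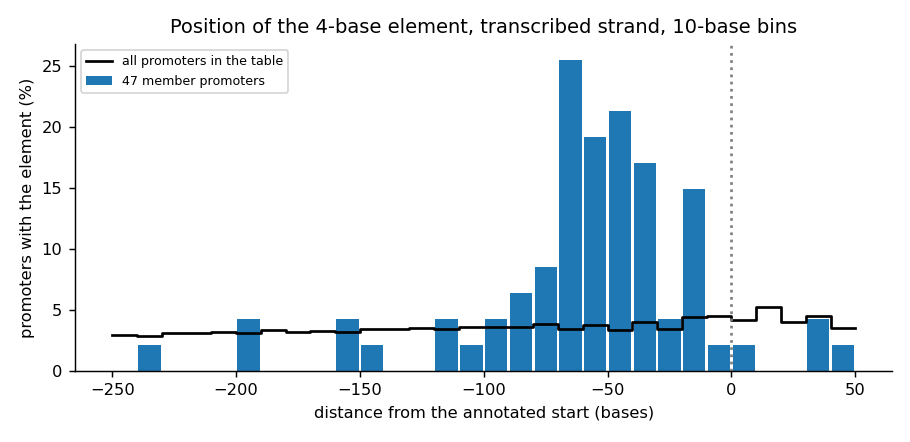
Share of promoters (vertical axis, percent) with the letters CGCT starting in each bin of 10 bases on the transcribed strand, by distance from the annotated start (horizontal axis, bases), for 47 member promoters (bars) and all 35116 promoters of the table (line). The member bars peak at 25.5% in the bin that begins 70 bases upstream, where the line stands at 3.47%.

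The structure of the clusters limits what the table can tell apart. In the GENCODE transcripts, alpha members share 2869 or 2866 bases and gamma members other than the pseudogene PCDHGB8P 2177 bases with the other members of their cluster, which is 53.0% of the PCDHA10 transcript and 45.5% of that of PCDHGA11, whereas beta members and PCDHGB8P share no exon. Fragments from constant exons cannot be assigned to a gene by sequence, and the values of alpha and gamma members rest on how the authors' software divided them. Among the bases that are a member's own, all 100-base stretches occurred once in the genome for PCDHGC3, PCDHGA11, PCDHAC2 and PCDHA10. The share was 84.1% for PCDHGB5, 84.2% for its near copy PCDHGB4, 88.5% for PCDHB2 and 72.8% for PCDHB8, so their levels are less certain.

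The steps between low FPKM values gave depths of 1.09 (si4), 1.54 (si5) and 1.02 (si1) relative to the control library, at about 53600000 to 82800000 fragments each. ZSCAN5A stood at 30.2% and 29.5% of its control level with si4 and si5, whereas ZSCAN5B stood at 105% with si1. That level was below 0.1 FPKM, or about 9.33 fragments against 8.74 in the control. No fall was therefore seen, and a modest one was not detectable at this depth. The si1 library is therefore called the library labelled ZSCAN5B knockdown. With si4 and si5, ZSCAN5B stood at 36.6% and 73.4% of its control level. These were about 3.5 and 9.91 fragments, too few for a certain ratio. ZSCAN5A stood at 105% with si1. Of 10 markers of HEK-293 cells, 9 reached 1 FPKM in every library, and PAX2 had 0.58 (si4), 0.61 (si5), 0.61 (si1) and 1.16 FPKM (control). Of 16 markers of other cell types, 11 stayed below 1 FPKM in every library, among them all those of blood cells, endothelium and liver, and 5 (COL1A1, MBP, MAP2, SYP and SNAP25) reached it in each. The neuronal markers SYP and SNAP25 were highest with si4, at 6.18 and 4.07 FPKM against 2.102 and 2.219 in the control, and their part in the protocadherin values was not tested. All 3 siRNA libraries were compared with the same control library.

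Protocadherin RNA in HEK-293 cells came mainly from a few members. In the control library 4 of 57 members (PCDHGC3, PCDHGB5, PCDHAC2 and PCDHGA11) reached 1 FPKM, whereas 51.6% of all rows did. These 4 genes held between 73.2% (si5) and 77.6% (si4) of the summed FPKM of all members. Together with PCDHB2 they occupied the first 5 places in the same order in every library, and the sixth place went to a different gene in each.

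**Figure D2:**
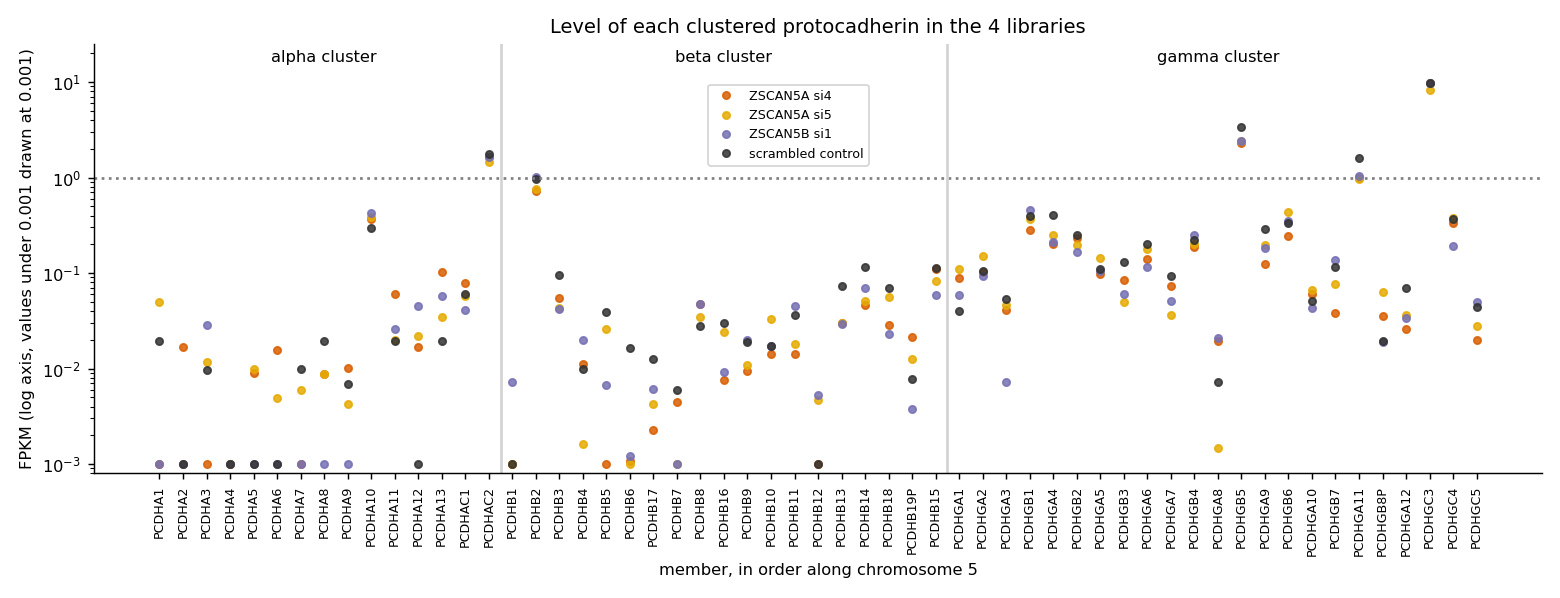
FPKM of each of the 57 members (vertical axis, log scale, with values under 0.001 drawn at 0.001) in order along chromosome 5 (horizontal axis), with 1 point per library and a dotted line at 1 FPKM. PCDHGC3 stands highest at 8.31 to 9.79 FPKM, and most alpha and beta members lie under 0.1 FPKM.

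The gamma cluster was the most highly expressed, with a summed level of 15.4 (si4), 14.7 (si5), 15.8 (si1) and 18.1 FPKM (control). PCDHGC3, a C-type member at chr5:140855569-140892546, stood at 9.74 (si4), 8.31 (si5), 9.67 (si1) and 9.79 FPKM (control), and so supplied 54.1% of the gamma sum in the control and 63.0% with si4. The other C-type members were far lower: PCDHGC4 had 0.331, 0.375, 0.194 and 0.367 FPKM in the same order, and PCDHGC5 stayed at or below 0.050 FPKM. The value of PCDHGC4 in the library labelled ZSCAN5B knockdown was the lowest of its 4.

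PCDHGB5 (chr5:140777695-140892546), a B-type member, was second with 2.28 (si4), 2.43 (si5), 2.44 (si1) and 3.41 FPKM (control). PCDHGA11 (chr5:140800537-140892546), an A-type member, had 0.996 (si4), 0.969 (si5), 1.04 (si1) and 1.58 FPKM (control). For both genes the control value was the highest of the 4, and the 3 siRNA values lay close together. The remaining 18 A- and B-type rows summed to 2.07 (si4), 2.61 (si5), 2.37 (si1) and 2.90 FPKM (control), led by PCDHGB1 at 0.28 to 0.46 FPKM and PCDHGB6 at 0.24 to 0.43 FPKM. Of the 23 gamma rows, 13 had a mean of at least 0.1 FPKM over the 4 libraries, and none was at 3 fragments or fewer in every library.

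In the alpha cluster 1 gene dominated. PCDHAC2, the C-type member nearest to the constant exons (chr5:140345747-140391929), had 1.63 (si4), 1.46 (si5), 1.65 (si1) and 1.78 FPKM (control), between 70.2% and 79.5% of the alpha sum. PCDHA10 (chr5:140235634-140391929) followed with 0.37 (si4), 0.39 (si5), 0.42 (si1) and 0.30 FPKM (control), so here the control was the lowest library. The other C-type gene, PCDHAC1, stayed between 0.041 and 0.079 FPKM, and PCDHA13 and PCDHA11 lay between 0.019 and 0.102 FPKM. The sum over PCDHA1 to PCDHA13 was 0.61 (si4), 0.56 (si5), 0.58 (si1) and 0.40 FPKM (control), and PCDHA10 accounted for 60.9% to 74.1% of it. At this level 10 of 15 alpha rows had fewer than 20 fragments in every library, and 10 fell under 1 fragment in at least 1 library, among them values such as 3.82e-20 FPKM for PCDHA1 with si4, which stand for no fragment.

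By summed FPKM the beta cluster was the lowest, at 1.12 (si4), 1.19 (si5), 1.42 (si1) and 1.66 FPKM (control). By the median of the member means it was not, at 0.018 FPKM against 0.013 FPKM for alpha. The beta genes share no exon with each other. PCDHB2 (chr5:140474237-140476964) had 0.72 (si4), 0.75 (si5), 1.00 (si1) and 0.97 FPKM (control), and made up 58.5% to 70.8% of the beta sum. The ZSCAN5A siRNA libraries were the lower pair, and the library labelled ZSCAN5B knockdown was level with the control. PCDHB15, PCDHB14, PCDHB3 and the pseudogene PCDHB18 came next, none above 0.116 FPKM in any library. PCDHB1, which stands apart from the other beta genes at the start of the cluster, had 0.0072 FPKM or 1 fragment with si1 and was listed at 0 in the other 3 libraries, which allows up to 3 fragments in each. All beta rows except PCDHB2 had fewer than 20 fragments in every library, and 5 of 19 had 3 or fewer throughout. Ratios of single beta genes other than PCDHB2 therefore have wide counting intervals, such as 0.377 (95% interval 0.132 to 0.957) with si4 and 0.457 (0.199 to 1.02) with si5 for PCDHB14. Only 2 of 19 beta rows had values in whole-number proportions (a tolerance of 0.075%), as compared with 70.7% of 2895 rows under 0.3 FPKM in the whole table. The sets are not quite alike: the 2895 rows were above 0 in every library, whereas 3 beta rows were listed at 0 in a library and PCDHB2 lay above 0.3 FPKM. Some beta values correspond to fractions of a fragment, such as 0.19 to 0.22 for PCDHB6 in the siRNA libraries.

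The ZSCAN5A comparison asked which genes differ when that gene is lowered, with the mean of si4 and si5 set against the control. A gene was tested where 1 or more of the libraries compared reached 1 FPKM, and passed where the ratio exceeded 1.5-fold in either direction. By this rule 1 of 4 members tested, PCDHGA11, passed, and it was lower. Over all rows, 3.79% of 12993 rows passed, 3.11% as lower. PCDHGA11 was 1.61-fold lower, a log2 difference of -0.69 with -0.67 for si4 and -0.71 for si5. PCDHGB5 lay just under the limit, at -0.54 (-0.58 for si4 and -0.49 for si5), while PCDHAC2 was at -0.20 and PCDHGC3 at -0.12. The median over all rows tested was -0.02.

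In numbers of fragments, the ratio of PCDHGA11 to control was 0.629 with si4 (95% exact Clopper-Pearson interval 0.539 to 0.735) and 0.612 with si5 (0.531 to 0.706). That of PCDHGB5 was 0.669 (0.603 to 0.742) and 0.710 (0.647 to 0.779). The intervals of both genes lie below 1. With si5, so do those of PCDHGC3 (ratio 0.849, 0.806 to 0.895) and PCDHAC2 (0.819, 0.731 to 0.918), whose si4 intervals include 1. All these intervals cover counting error only and take the authors' division of shared fragments as given. As a yardstick for differences between si4 and si5, the central 95% of rows between 1 and 10 FPKM differed by -0.53 to 0.46 on the log2 scale. Both siRNAs placed PCDHGA11 below that range, and si4 did so for PCDHGB5. The range does not measure how far the control library itself departs, which enters every ratio to control. Against control, 6.36% of all rows tested passed the fold rule with si4 alone and 3.54% with si5 alone. Of these calls, 81.9% and 83.4% were lower.

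Transcript length moved with these differences. Over rows with transcripts of 4500 to 6000 bases, which include the gamma members, the median log2 difference was -0.10, and over rows of 1000 to 2000 bases it was 0.06. Among 946 tested rows of 4500 to 6000 bases between 1 and 10 FPKM, 41 (4.33%) passed the rule as lower and 4 as higher. With the median change of rows of like length and GC content removed, PCDHGA11 was at -0.46 and PCDHGB5 at -0.31, and neither passed. The part of length in the result was not tested further.

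Of the 13 gamma members with a mean of at least 0.1 FPKM, 3 of them above 1 FPKM, 11 were lower than control, with a median log2 difference of -0.23. Of all 15504 rows at that level 55.3% were lower (median -0.03), as were 66.8% of 9106 rows between 0.1 and 10 FPKM (median -0.11) and 67.2% of rows of 4500 to 6000 bases. All 13 were lower with si4 (median -0.47) and 9 with si5 (median -0.16), and the gamma median was -0.0034 once the change of rows of like length and GC content was removed. PCDHGA4 stood at 0.20 (si4), 0.25 (si5), 0.21 (si1) and 0.41 FPKM (control), so that the control was again the highest library. PCDHGB6, at 0.24 with si4 and 0.43 with si5, lay on opposite sides of its control value of 0.34 FPKM. Rows between 0.1 and 1 FPKM differed between si4 and si5 by a median of 0.28 in either direction, against 0.13 for rows of 1 to 10 FPKM. Of the alpha genes, PCDHA10 was at 0.36 and PCDHAC2 at -0.20, and PCDHB2, the only beta gene at this level, was at -0.39.

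**Figure D3:**
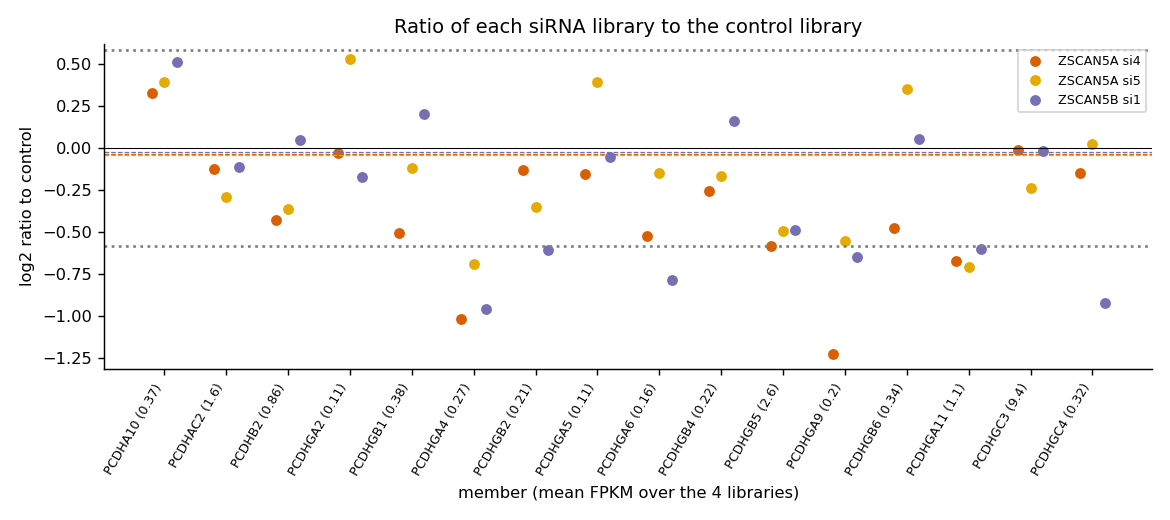
Log2 ratio to control (vertical axis) of the 16 members with a mean of at least 0.1 FPKM, for each siRNA library (colored points); dotted lines mark 1.5-fold, dashed lines the median of all rows in each library, and the mean FPKM stands after each name. PCDHGA11, PCDHGB5, PCDHGA4 and PCDHGA9 lie at -0.49 or lower with all 3 siRNAs and PCDHA10 above 0 with all 3.

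In the gamma cluster the A- and B-type rows together summed to 5.36 (si4), 6.001 (si5), 5.85 (si1) and 7.90 FPKM (control), a log2 difference of -0.48 for ZSCAN5A. The C-type rows summed to 10.1 (si4), 8.72 (si5), 9.91 (si1) and 10.2 FPKM (control), at -0.12, and 95.4% to 97.54% of this sum was PCDHGC3. Over single members with a mean of at least 0.1 FPKM, the median was -0.30 for 11 A- and B-type and -0.09 for 2 C-type rows, and with si1 it was -0.49 and -0.47. PCDHGC5, below that level, was at -0.88 for ZSCAN5A and 0.18 for si1. It had only 5.57 (si4), 11.2 (si5) and 11.3 fragments (control), and its counting intervals with si4 (0.152 to 1.47) and si5 (0.255 to 1.65) include 1. Without PCDHGA11 and PCDHGB5 the A- and B-type sum was at -0.31, with -0.48 for si4 and -0.16 for si5. All of these rows except PCDHGB8P carry the same constant exons, so fragments assigned to 1 class are withheld from another. The beta sum was at -0.52. PCDHB2, which made up 58.5% to 70.8% of the summed beta level, was itself at -0.39, and the other beta rows each had fewer than 20 fragments. The alpha sum was at -0.03, made up of PCDHA1 to PCDHA13 at 0.55 and the C-type rows at -0.19.

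**Figure D4:**
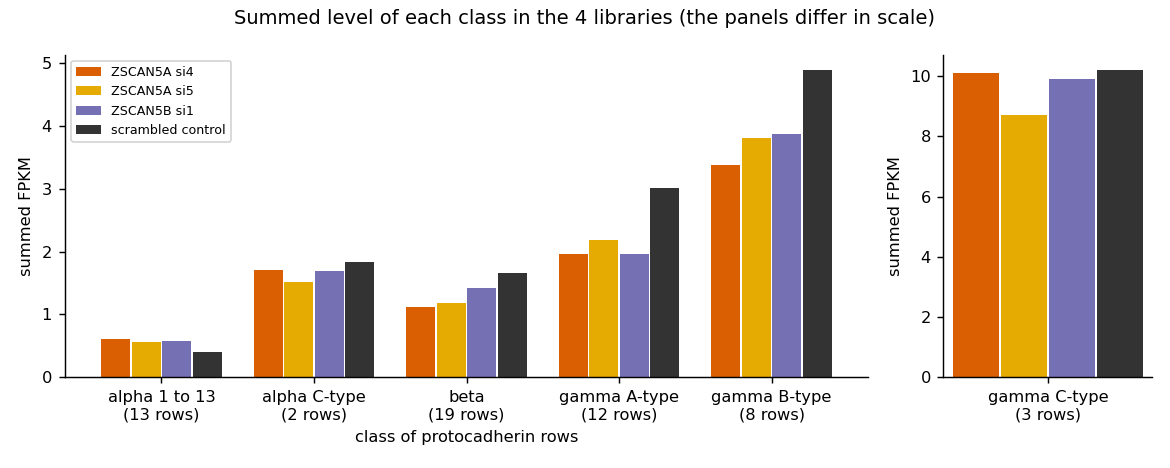
Summed FPKM (vertical axes, from 0) of 6 classes of protocadherin rows in each library; the gamma C-type rows have a panel of their own with a different scale. The control bar is the highest in 5 of the 6 classes, for example gamma A-type (3.01 against 1.97 to 2.19) and gamma C-type rows (10.2 against 8.72 to 10.1), and the lowest for PCDHA1 to PCDHA13.

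For the library labelled ZSCAN5B knockdown, 1 of 5 members tested passed the rule, again PCDHGA11, which was 1.52-fold lower (log2 difference -0.60, fragment ratio 0.659 with an interval of 0.563 to 0.771). The share of all 12921 rows that passed was 4.01%, with 3.17% lower. PCDHGB5 was at -0.49, PCDHAC2 at -0.11, PCDHGC3 at -0.02 and PCDHB2 at 0.05. The call of PCDHGA11 rested on a ratio at the limit: with a pseudocount of 0.1 FPKM, or with the change of rows of like length and GC content removed (-0.41), it did not pass. Since the control library is the same, these values are not independent of the ZSCAN5A comparison.

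The gamma median with si1 was -0.49 over the 13 members with a mean of at least 0.1 FPKM, 10 of them lower, beside -0.02 for all rows, 52.7% of them lower, and -0.09 for rows of 4500 to 6000 bases, 65.6% of them lower. With the change of rows of like length and GC content removed it was -0.29. PCDHGC4 was at -0.92, with 50 fragments against 94 in the control (ratio 0.523, interval 0.364 to 0.745), while with si4 and si5 the same gene stood at -0.15 and 0.03. PCDHGA4 was at -0.96 and PCDHGB1 at 0.21. The gamma A- and B-type sum was at -0.43, the C-type sum at -0.04, the beta sum at -0.23 and the sum of PCDHA1 to PCDHA13 at 0.54.

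**Figure D5:**
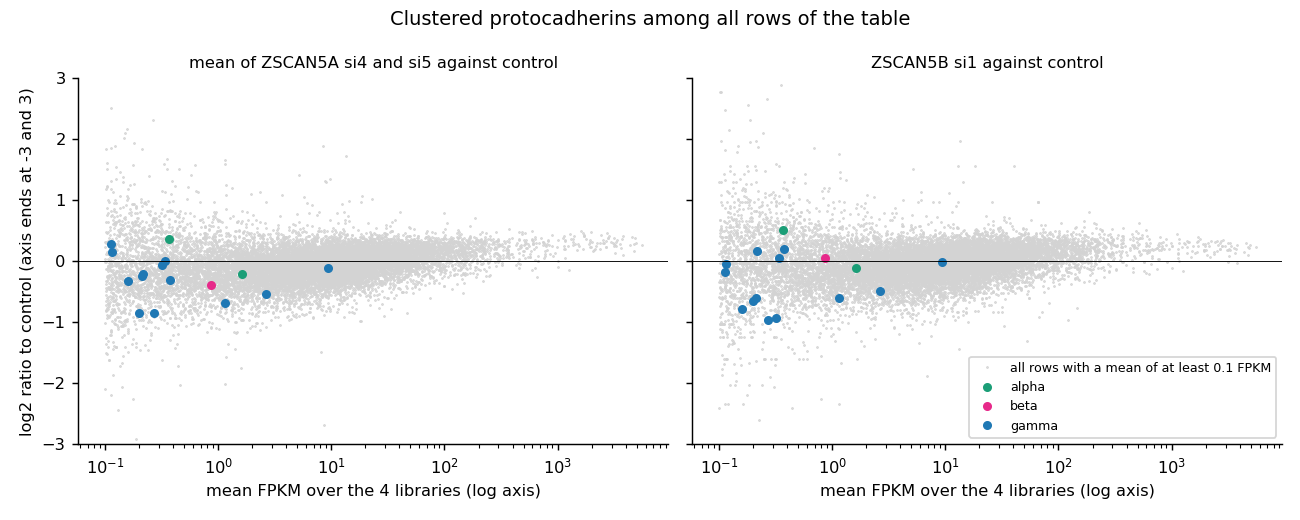
Log2 ratio to control (vertical axis, -3 to 3) against mean FPKM over the 4 libraries (horizontal axis, log scale) for all rows with a mean of at least 0.1 FPKM (grey) and the 16 clustered protocadherins among them (colors by cluster), for ZSCAN5A siRNAs (left) and si1 (right). The members lie among rows of like level, 13 of 16 below 0 on the left and 11 of 16 on the right. Of all rows shown, 55.3% and 52.7% are below 0, and of those between 0.1 and 10 FPKM, 66.8% and 62.2%.

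Genes that act on the clusters or on their proteins were described from lists of known roles. Of 33 chromatin regulators of the clusters (CTCF, cohesin and its loaders, DNA methylation and silencing factors), all were tested, 2 passed as lower in each comparison and none as higher, with medians of -0.01 (ZSCAN5A) and -0.03 (si1). Over all rows tested, 3.11% (ZSCAN5A) and 3.17% (si1) passed as lower. TET1, an enzyme that oxidizes 5-methylcytosine, stood at 2.59 (si4), 1.87 (si5), 2.15 (si1) and 3.53 FPKM (control) and passed in both. TET3, of the same family, passed for ZSCAN5A with 2.85, 3.03, 3.10 and 4.47 FPKM in the same order, and RCOR1, a corepressor subunit, for si1 with 5.14, 5.02, 3.85 and 6.73 FPKM. The most highly expressed of the list, TRIM28, SMC1A and RAD21, lay between -0.28 and 0.03 in both comparisons. CTCF itself, named here outside the rule for named genes, stood at 17.3 (si4), 18.9 (si5), 17.8 (si1) and 18.2 FPKM (control). The cohesin genes STAG2 and SMC3, also named outside the rule, were higher but within the fold limit. STAG2 was at 0.53 (ZSCAN5A) and 0.47 (si1), and SMC3 at 0.43 and 0.17. Of the 33 genes, 18 lay below control in each comparison.

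Of 34 partners and proteases of protocadherins, 31 were tested and 0 passed in either comparison (medians -0.02 and -0.03). The kinase genes FYN and PTK2, whose products are known to associate with clustered protocadherins, were expressed at 28.1 to 30.6 and 23.7 to 25.9 FPKM (both named outside the rule). Of 24 non-clustered protocadherins and related large cadherins, 12 were tested. CELSR1, CELSR2 and PCDH19 passed as lower for ZSCAN5A, and CELSR1 and PCDH19 for si1, with list medians of -0.25 and -0.38. Among all rows tested, 3.11% and 3.17% passed as lower. These cadherin genes and the TET genes have long transcripts of 9612 to 12060 bases. With the change of rows of like length and GC content removed, CELSR1, CELSR2, PCDH19 and TET3 passed in neither comparison (-0.36, -0.24, -0.26 and -0.27 for ZSCAN5A), while TET1 (-0.65) and RCOR1 (-0.71) passed for si1 alone. CELSR1, a seven-pass cadherin of planar cell polarity, had 1.87 (si4), 2.64 (si5), 2.59 (si1) and 3.97 FPKM (control). PCDH19, a delta protocadherin, had 0.881, 0.776, 0.829 and 1.253 FPKM in the same order. Of 11 classical cadherins and catenins, 8 were tested and 0 passed, with log2 ratios of CTNNB1 and CDH2 between -0.08 and 0.12 in every siRNA library. CDH3 varied more between libraries, at -1.16 (si4), -0.11 (si5) and 0.35 (si1).

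The median log2 ratio of the genes that flank the clusters lay near 0. Of 36 other rows within 500000 bases, 26 were tested, 0 passed for ZSCAN5A and 1 for si1 (EIF4EBP3, lower, at -0.65), with medians of 0.03 and 0.04. Among all rows tested 3.79% and 4.01% passed, so these counts set the neighbours apart in neither comparison. Single libraries held larger ratios, such as 0.66 for RELL2 with si4 and -0.89 for EIF4EBP3 with si5. A further 4 small RNA rows were listed at 0 in every library. ZMAT2, the nearest expressed gene before the alpha cluster, stood at 56.6 (si4), 71.1 (si5), 74.2 (si1) and 63.0 FPKM (control). TAF7, a general transcription factor subunit gene between the beta and gamma clusters, stood at 81.1, 73.1, 80.8 and 74.1 FPKM in the same order. DIAPH1, a formin gene just after the gamma cluster, had 26.2, 21.2, 24.9 and 28.4 FPKM.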

How the data were processed

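RNA-seq libraries of HEK-293 cells (4 libraries, 1 per siRNA or control) were analysed from the table of FPKM values deposited by the authors, who, per the labels, used CASAVA 1.8.2, Trimmomatic 0.30, TopHat2 2.1.0 and Cufflinks 2.2.1 with hg19. The gene annotation is not given in the sources used here, and labels and methods name different mRNA library kits. The table holds 0 further columns of per-sample values. FPKM were used as deposited, with no count test. The fold rule, which the paper's methods give for ZSCAN5B and which was applied here to both comparisons, was a ratio above 1.5 where 1 or more compared libraries reached 1 FPKM and both sides were above 0, without a pseudocount. The adjusted p-value that the methods give for ZSCAN5A appears here only as an alternative by limma. Medians are over members with a mean of at least 0.1 FPKM and above 0 in every library.

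Relative depth came from whole-number steps of low values, and fragments from FPKM, depth and length. Exon structure came from GENCODE v44 lifted to GRCh37, promoters from RefSeq. Members and gene lists were chosen with earlier results of these data known. Named genes were members past the fold rule, the 5 highest per cluster, the largest changes among those of at least 0.3 FPKM, C-type genes, PCDHB1, listed genes past the rule with the 3 highest, and the nearest expressed neighbours. Other genes were named after their values were seen.

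Python 3.11.15, NumPy 2.4.6, pandas 2.3.3, SciPy 1.17.1, pysam 0.24.0, matplotlib 3.10.9 and, for 1 alternative, limma 3.58.1 in R 4.3.3 were used, and the scripts were tested on simulated data. Alternatives covered limits, pseudocounts, scaling, a length and GC correction, pseudogenes and each ZSCAN5A siRNA alone.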

Additional observations from a re-analysis of the deposited data

How the results depend on the processing

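No paired analysis was possible because each treatment has 1 library and the labels give no replicate numbers. The count of members past the fold rule was 1 in both comparisons. It became 2 (ZSCAN5A) and 3 (si1) of 10 tested at a limit of 0.3 FPKM, where 5.20% and 5.63% of all rows passed. With no expression limit it was 33 and 35 of 55, where 13.7% and 13.2% of all rows passed. At a fold limit below 1.5 it was 2 and 2, but there 18.5% and 19.5% of all rows passed. At 2-fold it was 0 and 0, where only 0.56% and 0.52% of all rows passed. It was also 0 and 0 with a pseudocount of 1 FPKM, where 1.53% and 1.63% of all rows passed. With the length and GC correction it was 0 and 0, where 2.14% and 2.70% of all rows passed. It was 0 for si1 with a pseudocount of 0.1 FPKM, and 0 for ZSCAN5A by limma on log2(FPKM + 1), which treats si4 and si5 as 2 samples against 1 control. limma called 10 of 13044 rows, each listed at 0 in some library, 1674 rows had an unadjusted p below 0.05, and the lowest adjusted p of a member was 0.37. With si4 or si5 alone, both in the same direction, the limit set on the mean of the 4 libraries, either scaling, or pseudogenes left out, the count stayed 1. In these settings 1.87% (both siRNAs in the same direction) to 6.36% (si4 alone) of all rows passed.

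The gamma median for ZSCAN5A (-0.23) was -0.54 at a mean of at least 1 FPKM (3 genes), -0.049 with a pseudocount of 1 FPKM, -0.0034 with the length and GC correction and -0.47 with si4 alone. For si1 (-0.49) it was -0.25 at a mean of at least 0.3 FPKM, -0.26 with no limit, -0.10 with a pseudocount of 1 FPKM and -0.29 with the correction. The alpha median (0.08 and 0.20, 2 genes) reversed to -0.20 and -0.11 at a mean of at least 1 FPKM, where only PCDHAC2 is left, and with no limit was 0.36 and -3.27, the second reversed by rows under 1 fragment. It was 0.22 for ZSCAN5A with the correction and 0.033 for si1 with a pseudocount of 1 FPKM. PCDHB2, the only beta gene at the main limit, was at -0.39 and 0.05, and -0.18 for ZSCAN5A with a pseudocount of 1 FPKM. The beta median with no limit was -0.90 and, reversed, -0.97 (16 genes). No beta gene reached a mean of 1 FPKM or, with at least 90% of unique stretches, 0.1 FPKM, and those alternatives gave no value. The causes of the other shifts were not tested. Depth limits most alpha and beta rows to under 20 fragments.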
